A study of Homo sapiens with 4 samples.

Results

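PANC-1 is an established human cell line grown from a ductal carcinoma of the pancreas, and its messenger RNA levels were described here in the 2 libraries titled Control-1 and Control-2, which are 2 of the 4 libraries of the series. Both came from PANC-1 cells that had been transfected with a control for 48 hours, so the cells were the reference condition of a transfection experiment and not untouched cultures. The other 2 libraries, from cells given small interfering RNA against SIRT1, were not compared with them. The study's methods name the American Type Culture Collection as the source of the line and Dulbecco's modified Eagle's medium with fetal bovine serum as its medium. Total RNA had been extracted with Trizol and libraries made by the sequencing provider's protocol. The labels do not say whether the Control libraries came from separate cultures or what the control agent was, so the spread between them may be technical.

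All 16878 genes of the tables were used, and none was chosen here by its level. Some genes had no row, and why is not given in the sources used here. For example, 15 of 22 listed acinar genes and 7 of 12 listed hepatocyte genes had a matched row. Every count and share below is therefore of genes with a row, not of all genes of the genome. Values are FPKM, fragments per kilobase of transcript relative to the library's mapped fragments. They correct for transcript length, so levels of different genes can be set side by side. Other errors tied to a gene can recur in both libraries, so an order of different genes describes the listed values only. Wherever a pair of FPKM values follows a gene, the first is Control 1 and the second is Control 2. A gene is counted as expressed here when it reached 1 FPKM in both libraries, a working limit and not a biological boundary. The tables give no read totals. Steps left by single fragments in weakly expressed single-exon genes placed the depth near 8770000 fragments for Control 1 and 9080000 fragments for Control 2. This estimate is approximate, and its settings were chosen after its values were seen. Of 12 fits under different fragment limits, 11 gave 8690000 to 9430000 fragments and 1, for Control 2, gave 14260000. At the estimated depth 3 fragments on a transcript of 2000 bases are worth about 0.175 FPKM, so a gene listed at 0 may still have been transcribed below that level.

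Ductal carcinoma cells are epithelial, and the keratins KRT8, KRT18 and KRT19 form the intermediate filaments of simple epithelia. They are listed here as duct markers together with the transcription factor SOX9, although simple epithelial keratins are not confined to ducts. Carcinoma cells can also take on mesenchymal features, among them the filament protein vimentin and N-cadherin in place of E-cadherin, a change of state named the epithelial to mesenchymal transition (EMT). Pancreatic tumours are commonly sorted into classical subtypes, with epithelial and gut-like gene expression, and basal-like or quasi-mesenchymal subtypes, which have lost much of it.

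The line's label was checked against markers of the pancreas and of other tissues. The simple epithelial keratins were among the most abundant transcripts, with KRT8 at 2272 and 2164 FPKM, KRT18 at 1587 and 1484 FPKM and KRT19 at 327 and 313 FPKM. SOX9 was at 63.7 and 61.01 FPKM and the membrane mucin MUC1 at 48.1 and 46.3 FPKM. The duct genes SLC4A4, a bicarbonate carrier, and SPP1, a secreted phosphoprotein, were listed at 0 in both libraries. The ductal list was therefore only partly expressed, at 7 of 15 genes.

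In the Control libraries 11944 of 16878 genes, 70.8%, were expressed. A further 1013 genes, 6.0%, were listed at 0 in both libraries. The median level over all genes was 5.37 FPKM, and 630 genes, 3.73%, reached a mean of 100 FPKM. These shares are the background for each gene group below, since lists of tissue markers, receptors or enzymes hold different proportions of unexpressed genes. Across the 968 different genes of the 48 lists that could be analysed, 555 genes, 57.3%, were expressed.

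The agreement of the libraries set how finely the level of the same gene could be read. Over 12131 genes whose mean reached 1 FPKM, the difference of log2(FPKM + 1) between Control 2 and Control 1 had a median of 0.008 and an SD of 0.166 across genes. Pearson's r across these genes was 0.995 and Spearman's rho was 0.994, which describe genes within a pair of libraries and not independent replicates. The spread narrowed with level. The SD of the log2 ratio was 0.38 at 1 to 3 FPKM, which is 1.31-fold, and 0.06 at 100 to 1000 FPKM, which is 1.04-fold. Counting error alone, from the approximate depth, would give SDs of 0.28 and 0.04 in those classes. Among 5361 genes with 300 to 3000 fragments in each library, the squared difference averaged 1.80 times the counting variance, a ratio that scales with the estimated depth.

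**Figure D1:**
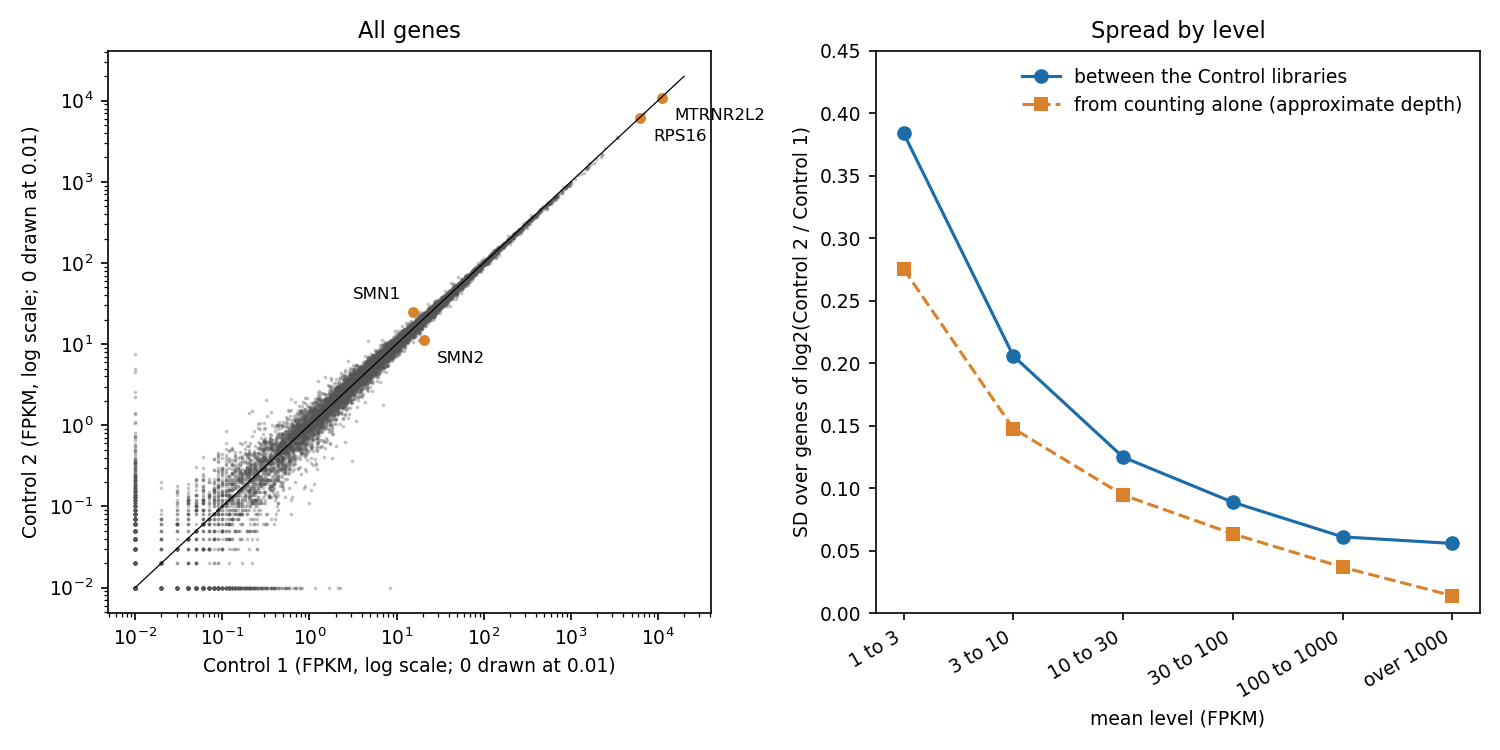
The left panel plots each gene's FPKM in Control 2 against Control 1 on log scales, with values of 0 drawn at 0.01, and the right panel plots the SD over genes of the log2 ratio by level, with the part expected from counting. The points narrow onto the diagonal as the level rises, and the observed SD falls from 0.38 at 1 to 3 FPKM to 0.06 at 100 to 1000 FPKM.

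Few genes separated the libraries. On the log2(FPKM + 1) scale 76 of the 12131 genes, 0.626%, differed by more than 1.5-fold, 36 of them higher in Control 2 and 40 higher in Control 1. Only 3 of the 6101 genes whose mean reached 10 FPKM did so, namely SMN2, ZNG1E and SMN1. SMN2, at 20.9 and 11.1 FPKM, and SMN1, at 15.6 and 24.9 FPKM, encode the survival motor neuron protein from near-identical copies, and they moved in opposite directions. Their sum was 36.4 FPKM in Control 1 and 36.0 FPKM in Control 2, which differed far less than either gene, and levels of single copies are uncertain. ZNG1E was at 18.1 and 11.1 FPKM and also has close copies. The sum over the 5 ZNG1 genes analysed was 30.9 and 24.96 FPKM.

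The other 7 of the 10 largest differences above 10 FPKM were smaller. The inflammatory cytokine IL18 was at 9.67 and 14.4 FPKM and the neutrophil-attracting chemokine CXCL1 at 15.3 and 10.6 FPKM, in opposite directions. CENPT, a kinetochore protein, was at 11.6 and 16.8 FPKM, the aminopeptidase LAP3 at 12.9 and 18.2 FPKM and PRKRA, an activator of the RNA-dependent kinase PKR, at 10.3 and 14.5 FPKM. MIX23 was at 12.3 and 8.21 FPKM and PAM16, part of the mitochondrial import motor, at 40.8 and 29.8 FPKM. Counts behind these were modest, from about 48 fragments for MIX23 in Control 2 to about 381 for CENPT in Control 2. Length moved slightly with the difference between libraries. The median log2 difference of genes at 10 FPKM or more was -0.05 for transcripts under 1000 bases and 0.02 for those over 4000 bases, a shift whose cause was not tested.

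The most abundant entries were genes of the MTRNR2L family, nuclear copies that resemble the mitochondrial large ribosomal RNA gene. MTRNR2L2 led at 11116 and 10943 FPKM, followed by MTRNR2L8 at 6976 and 7029.9 FPKM, with MTRNR2L9 at 3408 and 3549.9 FPKM and MTRNR2L1 at 2495 and 2621 FPKM among the leading 6. Fragments of the mitochondrial RNA and of these copies can hardly be told apart, so the entries are uncertain as levels of the nuclear genes. The 10 members together held 6.20% of the summed FPKM in Control 1 and 6.34% in Control 2. The 10 most abundant genes of all held 10.6% in each library.

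Cytoskeletal genes made up much of the top of the list. The cytoplasmic actins were ACTB at 3504 and 3490.3 FPKM and ACTG1 at 1705 and 1655 FPKM. KRT8 and the mesenchymal filament gene VIM, at 2198 and 2049 FPKM, had overlapping values between libraries. Within each library the listed value of KRT8 was slightly higher, with VIM to KRT8 ratios of 0.968 and 0.947. Errors tied to each gene were not measured, so these genes are not put in order. TMSB10, which binds actin monomers, was at 1845 and 1716 FPKM, the actin crosslinker ACTN4 at 1588 and 1546 FPKM and ANXA2, a membrane-binding annexin, at 1509 and 1482 FPKM. KRT18, the partner of KRT8, was below it, with KRT8 to KRT18 ratios of 1.43 and 1.46. By GENCODE annotation on GRCh37, KRT8 lies at chr12:53290971-53343738 on the minus strand with 8 exons and VIM at chr10:17270240-17279592 on the plus strand with 10 exons.

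Translation genes formed the next block. The elongation factor EEF1A1 was at 2266 and 2189.7 FPKM, and RACK1, a scaffold on the small ribosomal subunit, at 1209 and 1212 FPKM. The 76 cytosolic ribosomal protein genes analysed held 10.4% and 10.02% of the summed FPKM, with medians of 449 and 444 FPKM. RPS16 stood far from the rest of that class, at 6318 and 6094 FPKM, which was 4.08 and 4.25 times RPS2, the next highest at 1548 and 1435 FPKM. RPL41 was at 1431 and 1271 FPKM, RPLP2 at 1016 and 964 FPKM, RPLP1 at 983 and 969.7 FPKM and RPS27 at 982 and 927 FPKM. FBL, the methyltransferase that modifies ribosomal RNA in the nucleolus, was at 1602 and 1556 FPKM. Ribosomal protein genes have many processed pseudogenes that can share their fragments, so their levels carry that uncertainty.

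The remaining members of the top 30 came from metabolism, turnover and secretion. The glycolytic enzymes GAPDH and ENO1 were at 1969 and 1919 FPKM and 1480.0 and 1428 FPKM respectively. SCD, the desaturase that makes monounsaturated fatty acids, was at 1641 and 1688 FPKM, and ECH1, an isomerase of fatty acid oxidation, at 954 and 899 FPKM. The lysosomal protease CTSD was at 1305 and 1261 FPKM, the proteasome ATPase PSMC4 at 943 and 920.4 FPKM and the iron store FTH1 at 972 and 920.2 FPKM. LGALS1, a secreted galectin, was at 1124 and 1078 FPKM and MFGE8, a secreted bridge to phosphatidylserine on dying cells, at 1008 and 1008 FPKM, the closest pair of values in the top 30.

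Promoter sequence was set beside these levels, since promoters rich in CG dinucleotides are typical of widely expressed genes and promoters poor in them of tissue-restricted genes. RefSeq sequence (GRCh38.p14) of the 250 bases upstream of the start was used for the 9692 genes with a single listed start. The median number of CG dinucleotides was 5 for the 619 genes listed at 0, 9 for 773 genes above 0 and up to 0.1 FPKM, 10 for 1251 genes above 0.1 and up to 1 FPKM, 21 for 3459 genes above 1 and up to 10 FPKM, 23 for 3242 genes above 10 and up to 100 FPKM and 22 for 348 genes above 100 FPKM. The largest step in the median was from 10 in the class up to 1 FPKM to 21 in the class above 1 FPKM. Medians changed little among the classes above 1 FPKM. The interquartile range was 2 to 15 for genes listed at 0 and 17 to 30 for genes above 10 and up to 100 FPKM, while genes above 0.1 and up to 1 FPKM spanned both, at 4 to 21.5.

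The 4 upstream sequences that follow show both the usual pattern and its exceptions, and they were picked after their levels were seen. ALDH1A3 and ALDH1A1 encode related aldehyde dehydrogenases that make retinoic acid. ALDH1A3 was at 55.1 and 51.9 FPKM and its window (chr15:100879581-100879830, plus strand) held 38 CG dinucleotides. ALDH1A1 was listed at 0 in both libraries and its window (chr9:72953054-72953303, minus strand) held 6. The other pair ran against the pattern. AGR2, a disulfide isomerase of secretory cells, was at 171 and 160.0 FPKM with 3 in its window (chr7:16805000-16805249, minus strand). FN1, fibronectin of the extracellular matrix, was at 0.27 and 0.24 FPKM with 32 in its window (chr2:215436069-215436318, minus strand). Each is written 5′ to 3′ in lower case, ending at the base before the start, with CG dinucleotides in capitals.
ALDH1A3: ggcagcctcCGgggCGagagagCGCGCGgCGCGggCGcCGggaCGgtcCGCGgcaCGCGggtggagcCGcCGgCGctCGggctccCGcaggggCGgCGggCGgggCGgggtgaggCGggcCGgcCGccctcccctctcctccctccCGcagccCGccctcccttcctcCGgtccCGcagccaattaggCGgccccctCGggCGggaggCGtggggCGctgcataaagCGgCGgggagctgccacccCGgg
ALDH1A1: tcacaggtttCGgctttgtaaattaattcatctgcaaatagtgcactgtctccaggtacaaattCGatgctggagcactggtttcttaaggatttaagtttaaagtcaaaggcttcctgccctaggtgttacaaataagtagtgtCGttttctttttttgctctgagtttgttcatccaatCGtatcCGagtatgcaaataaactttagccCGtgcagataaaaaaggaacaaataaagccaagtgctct
AGR2: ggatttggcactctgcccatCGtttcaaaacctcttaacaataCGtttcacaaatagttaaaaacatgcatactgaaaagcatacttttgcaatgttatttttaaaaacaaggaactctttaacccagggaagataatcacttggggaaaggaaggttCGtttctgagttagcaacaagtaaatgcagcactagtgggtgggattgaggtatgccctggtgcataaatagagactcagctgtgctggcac
FN1: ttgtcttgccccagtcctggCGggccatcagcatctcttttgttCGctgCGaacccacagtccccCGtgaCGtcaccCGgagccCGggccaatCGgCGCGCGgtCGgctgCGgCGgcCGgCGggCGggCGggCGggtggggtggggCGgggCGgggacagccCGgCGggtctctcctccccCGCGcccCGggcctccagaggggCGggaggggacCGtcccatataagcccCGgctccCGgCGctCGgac

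Core promoter letters also differed by level. TATAAA within the last 50 upstream bases, read on the gene's strand, was found in 8.72% of genes listed at 0, in 1.48% of genes above 10 and up to 100 FPKM and in 6.03% of genes above 100 FPKM. The share was 3.38% over the 9692 promoters of these classes together and 2.63% over all 35116 listed promoters. The letters GGGCGG or their reverse complement CCGCCC, the GC box, were found within 250 bases in 34.6% of genes listed at 0 and in 74.4% of genes above 10 and up to 100 FPKM, against 63.7% of the 9692 promoters and 42.6% of all listed promoters. GC boxes contain CG dinucleotides, so this measure overlaps the count above. A match describes letters and not a binding site.

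Markers of other pancreatic and neighbouring cell types were mostly below the limit. Of the acinar genes, which encode digestive enzymes and their regulators, 1 of 15 was expressed, namely GP2, the zymogen granule glycoprotein, at 2.81 and 3.11 FPKM. The count was 2 without Control replicate 2, with BHLHA15, an acinar transcription factor, at 1.04 and 0.51 FPKM. The trypsinogen PRSS1, at 0.15 and 0 FPKM, and the carboxyl ester lipase CEL, at 0.49 and 0.34 FPKM, were near the level of a few fragments. Of the endocrine islet genes 5 of 22 were expressed. They were ENO2, a neuronal and endocrine enolase, at 11.9 and 14.2 FPKM, the vesicle protein SYP at 10.5 and 11.6 FPKM, IAPP, the amyloid peptide of beta cells, at 5.11 and 6.49 FPKM, and the granins CHGB at 4.06 and 3.75 FPKM and SCG2 at 1.55 and 1.89 FPKM. Other defining islet genes were not, since CHGA, PPY, NEUROD1, NKX2-2 and the prohormone convertases PCSK1 and PCSK2 were listed at 0 in both libraries.

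Stromal and blood markers followed the same course. Among stellate cell and fibroblast genes 3 of 13 were expressed, with the collagens COL1A1 at 18.8 and 18.2 FPKM and COL3A1 at 4.08 and 4.04 FPKM and the surface protein THY1 at 4.09 and 2.81 FPKM. COL1A2, whose product joins that of COL1A1 in type I collagen, was at 0.02 and 0 FPKM, and LUM and FAP were listed at 0. The endothelial list had 1 of 9, the junction protein ESAM at 3.99 and 3.38 FPKM, with CLDN5 and ERG listed at 0. Of the leukocyte genes 4 of 11 were expressed, and the list's summed level of 85.2 and 85.7 FPKM was mostly the lysosomal protein CD68, at 62.96 and 60.8 FPKM. Lysozyme LYZ was at 15.3 and 17.2 FPKM, CD14 at 5.11 and 5.49 FPKM and the pan-leukocyte phosphatase PTPRC at 1.21 and 1.22 FPKM, while HBB, a globin of red blood cells, was listed at 0.

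Hepatocyte genes were expressed at 1 of 7, fibrinogen beta chain FGB at 1.26 and 1.03 FPKM, and APOA1 and APOB were listed at 0. Among intestine and stomach genes 2 of 15 were expressed, the trefoil factor TFF1 at 1.72 and 1.95 FPKM and the galectin LGALS4 at 1.76 and 1.74 FPKM. Neural and Schwann genes were expressed at 3 of 13. They were the tubulin TUBB3 at 90.8 and 93.9 FPKM, the filament gene NES at 17.04 and 19.2 FPKM and MAP2 at 4.22 and 4.30 FPKM, whereas NEFL and GAP43 were listed at 0 and SOX10 was at 0.04 and 0 FPKM. Whether any of these transcripts came from other cells was not tested.

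**Figure D2:**
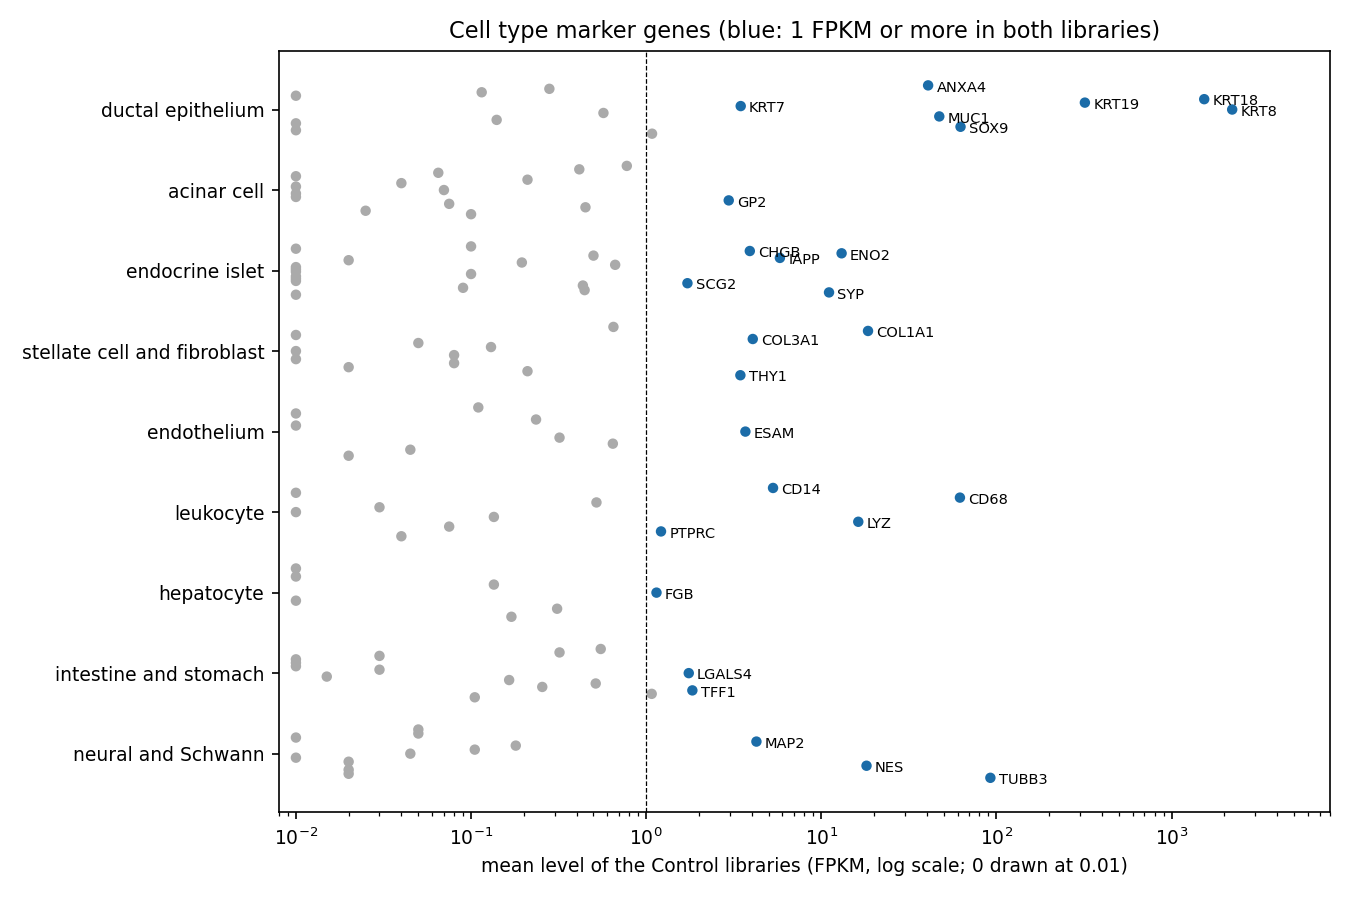
Each point is a marker gene at the mean FPKM of the Control libraries on a log scale, with 0 drawn at 0.01, by cell type list, and blue points reached 1 FPKM in both libraries. The simple epithelial keratins KRT8, KRT18 and KRT19 sit at the right, above 300 FPKM. Most markers of acinar, endothelial and hepatic cells lie left of 1 FPKM.

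Transcription factors of the pancreas and foregut were expressed at 10 of 28. After SOX9 the highest were FOXA2, a pioneer factor of endoderm, at 27.4 and 24.7 FPKM, the Notch target HES1 at 14.6 and 14.4 FPKM and GATA4 at 9.95 and 9.70 FPKM. KLF4, a factor of epithelia and pluripotent cells, was at 6.88 and 7.44 FPKM and HHEX, an early foregut factor, at 2.54 and 4.76 FPKM. FOXA1 was at 1.42 and 1.47 FPKM, far below its relative FOXA2. GATA6, a factor of the classical subtype, fell just short of the limit at 0.90 and 0.89 FPKM. The pancreas organiser PDX1 was at 0.09 and 0.09 FPKM, NR5A2 at 0.47 and 0.44 FPKM, and HNF4A and SOX17 were listed at 0. Of the 28 factors 10 were expressed, 6 were under 0.1 FPKM in both libraries and 12 lay between.

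HOX genes, which set position along the body axis and lie in 4 clusters, were expressed by cluster. All 9 HOXB genes analysed were expressed, with a summed level of 330.0 and 314 FPKM, and so were 8 of 9 HOXC genes, with 229 and 225 FPKM. HOXA had 4 of 10, with sums of 7.37 and 7.01 FPKM, and HOXD had 0 of 7, with sums of 0.15 and 0.19 FPKM. HOXC10 was the highest at 74.7 and 73.9 FPKM, followed by HOXB6 at 64.4 and 60.2 FPKM and HOXB3 at 57.7 and 55.3 FPKM. HOXC13, from the end of its cluster, was at 39.1 and 38.99 FPKM, while its neighbour HOXC12 was at 0.25 and 0.38 FPKM. HOXB13 was at 2.39 and 2.10 FPKM, the lowest of its cluster. HOXD10 and HOXD11 were listed at 0.

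**Figure D3:**
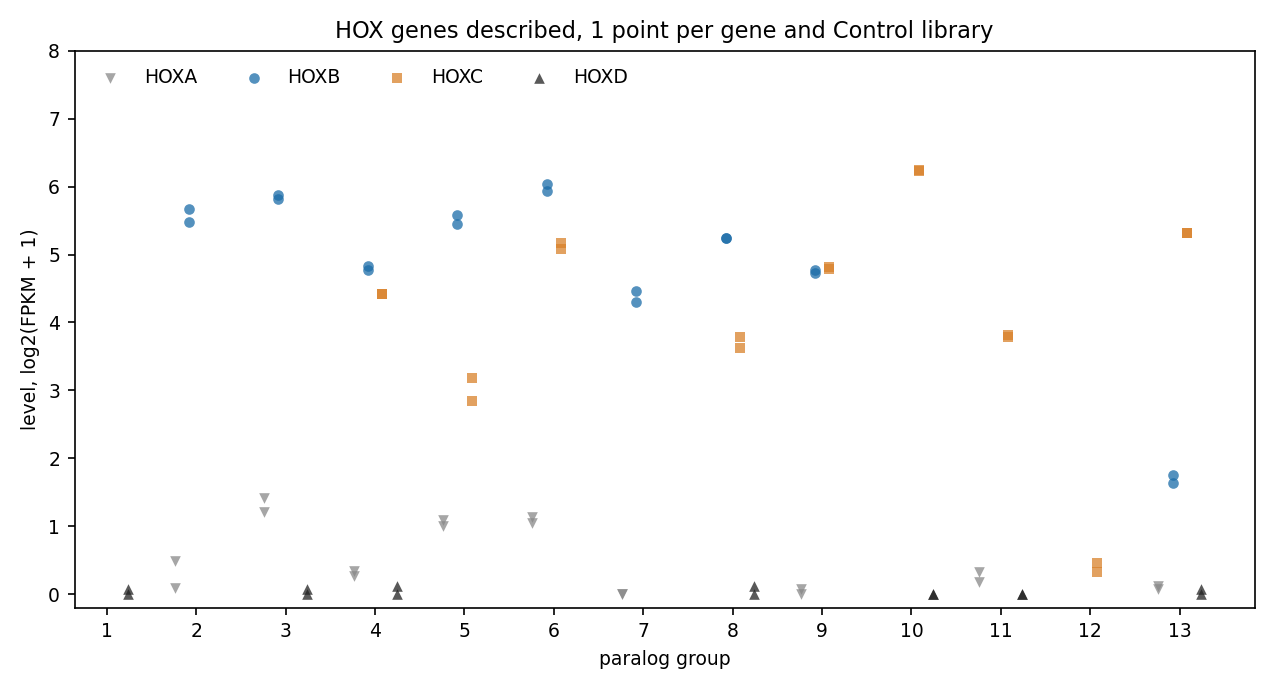
Each point is a described HOX gene in a Control library, as log2(FPKM + 1) against its paralog group, with clusters marked by colour and shape. HOXB and HOXC points lie mostly above 3 on this scale, HOXA points below 2 and HOXD points near 0.

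Epithelial and mesenchymal genes were expressed side by side. Of 24 epithelial identity genes 12 were expressed, and of 23 mesenchymal effector genes 19 were, with medians of 1.05 and 23.8 FPKM. These lists differ in kind, so their counts and medians do not weigh one state against the other. The epithelial list includes many transcription and splicing factors, whereas the EMT transcription factors were listed apart, with a median of 1.365 FPKM. On the epithelial side the protease inhibitor SPINT2 was at 795 and 754 FPKM, the claudins CLDN4 and CLDN7 at 232 and 232 FPKM and 69.2 and 67.3 FPKM, and the transcription factor ELF3 at 26.4 and 25.8 FPKM. Beside VIM, the mesenchymal genes included the hyaluronan receptor CD44 at 434 and 433 FPKM, the matrix protein TGFBI at 383 and 377 FPKM and the calcium-binding S100A4 at 192 and 185 FPKM. MMP2, a gelatinase, was at 81.5 and 80.9 FPKM and the collagen crosslinker LOXL2 at 58.3 and 59.7 FPKM. FN1 was the lowest mesenchymal gene of the list.

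Within several families 1 member was expressed and a relative was near 0. The epithelial splicing factor ESRP2 was at 10.4 and 10.5 FPKM and ESRP1 at 0.07 and 0.03 FPKM. Of the grainyhead factors, which maintain epithelia, GRHL3 was at 17.6 and 16.1 FPKM and GRHL1 at 1.43 and 1.35 FPKM, while GRHL2 was listed at 0. The trafficking gene RAB25 and the squamous factor TP63 were listed at 0 as well, and the surface adhesion gene EPCAM was at 5.34 and 6.70 FPKM. Among the EMT transcription factors, 7 of 12 were expressed. FOXC2 was the highest at 12.8 and 13.6 FPKM, then PRRX2 at 8.90 and 8.98 FPKM and SNAI1 at 8.88 and 6.81 FPKM. ZEB1 was at 4.48 and 4.75 FPKM and ZEB2 at 0.14 and 0.11 FPKM, and SNAI2 was at 0.17 and 0.17 FPKM. With TWIST2 at 4.06 and 3.01 FPKM, the expressed SNAI, ZEB and TWIST genes of this list, repressors of E-cadherin, all stayed below 10 FPKM.

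The subtype lists were each partly expressed. Of the classical subtype genes of Moffitt 4 of 18 were expressed, with a median of 0.335 FPKM, and of the basal-like genes 7 of 18, with a median of 0.202 FPKM. Without Control replicate 2 the counts were 8 and 7, so the order of these lists turned, and at 0.5 FPKM both were 8. AGR2 was the highest classical gene, and LYZ, TFF1 and LGALS4 were the other 3. The basal-like genes were led by the glucose transporter SLC2A1 at 25.6 and 23.4 FPKM, the keratin KRT15 at 9.79 and 11.9 FPKM and the growth factor AREG at 8.24 and 7.96 FPKM, while KRT6A was listed at 0 and KRT17 was at 0 and 0.35 FPKM. Of the Collisson lists, 9 of 21 classical genes, 11 of 17 quasi-mesenchymal genes and 2 of 11 exocrine-like genes were expressed, with medians of 1.07, 5.46 and 0.10 FPKM. All 3 shares were below the 70.8% of all genes.

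The quasi-mesenchymal genes with the highest levels were PHLDA1 at 116 and 112 FPKM, the caveolar coat gene CAV1 at 108 and 113 FPKM, the large scaffold AHNAK2 at 83.4 and 83.3 FPKM and NT5E, the surface enzyme that makes adenosine, at 38.6 and 40.4 FPKM. Among the classical genes of Collisson the membrane protein GPRC5A, at 263 and 264 FPKM, AGR2 and ELF3 were high, and the carcinoembryonic genes CEACAM5 and CEACAM6 were at 1.33 and 1.04 FPKM and 1.24 and 0.66 FPKM. Exocrine-like genes were led by the amino acid transporter subunit SLC3A1 at 4.71 and 3.57 FPKM. AGR2, GPRC5A and ELF3 were each above SLC2A1, the leading basal-like gene of the Moffitt list, although for ELF3 by little. PHLDA1, CAV1 and AHNAK2 of the quasi-mesenchymal list were in turn above ELF3. Such leading genes of different lists do not rank the subtypes.

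Adhesion genes were uneven between junction types. Of the cadherins 5 of 18 were expressed. N-cadherin CDH2 was the highest at 15.6 and 15.6 FPKM, followed by P-cadherin CDH3 at 6.80 and 8.07 FPKM and CDH24 at 6.72 and 7.02 FPKM. E-cadherin CDH1 was at 3.89 and 3.75 FPKM, so that CDH2 was 4.02 and 4.15 times CDH1. Values of CDH2 and CDH1 did not overlap. The spread between libraries is that of the same gene, so it gives no error for a ratio of different genes. CDH1 lies at chr16:68771195-68869440 on the plus strand and CDH2 at chr18:25512843-25757910 on the minus strand of GRCh37, with 16 exons each.

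Catenins, which tie cadherins to actin, had 4 of 7 expressed, namely plakoglobin JUP at 128 and 125 FPKM, CTNNA1 at 96.4 and 95.1 FPKM, CTNND1 at 89.1 and 95.02 FPKM and CTNNB1 at 53.5 and 56.9 FPKM. The neural forms CTNNA2 and CTNND2 were listed at 0. Desmosomal genes were expressed at 8 of 13, from PERP at 160.1 and 162 FPKM and the plakophilin PKP3 at 31.4 and 29.5 FPKM to DSG2 at 18.2 and 18.6 FPKM and DSP at 7.50 and 7.23 FPKM. The skin forms DSG1 and DSG4 were listed at 0. Tight junction genes were expressed at 18 of 27, and after CLDN4 and CLDN7 came the adhesion molecule F11R at 30.4 and 31.9 FPKM, occludin OCLN at 19.6 and 20.4 FPKM and the scaffold TJP1 at 17.5 and 18.2 FPKM. CLDN18, a stomach claudin, was at 0.47 and 0.60 FPKM and CLDN5 was listed at 0. Each of the 4 expressed catenins was above every cadherin analysed.

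Integrins, the receptors that bind cells to matrix, were expressed at 10 of 26. The count depended on the limit, at 16 for 0.5 FPKM and 17 for 1 TPM. The shared beta subunit ITGB1 was the highest at 449 and 459 FPKM, followed by the laminin receptor subunit ITGA3 at 361 and 359 FPKM, ITGB5 at 191 and 190.4 FPKM and the fibronectin receptor subunit ITGA5 at 109 and 112 FPKM. Next were ITGA6 at 60.8 and 65.3 FPKM, ITGAV at 46.1 and 50.2 FPKM and ITGB4 at 42.4 and 41.3 FPKM, with ITGA2, the collagen receptor subunit, at 21.5 and 21.1 FPKM. Ranges of neighbours in this order did not overlap from ITGB1 down to ITGB3, which was at 10.2 and 10.1 FPKM. ITGB6 and ITGA9 were near 0, at 0.05 and 0.03 FPKM and 0.03 and 0.03 FPKM. The leukocyte subunit ITGB2, at 4.91 and 4.54 FPKM, stood above its leukocyte alpha partners, with ITGAL at 0.43 and 1.0 FPKM and ITGAM at 0.12 and 0.15 FPKM.

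Of the other adhesion molecules 25 of 32 were expressed. The tetraspanins CD151, CD81 and CD9, which organise integrins in the membrane, were at 776 and 781 FPKM, 372 and 363 FPKM and 125 and 120.2 FPKM. NECTIN2 was at 130.1 and 128 FPKM, the leukocyte ligand ICAM1 at 125 and 122 FPKM, L1CAM, a neural adhesion molecule, at 100.1 and 97.5 FPKM and MCAM at 99.2 and 99.8 FPKM. VCAM1 was at 0.08 and 0.04 FPKM and NCAM1 at 0.13 and 0.08 FPKM. Other immunoglobulin family members lay between these levels, with BCAM at 56.1 and 54.8 FPKM, PVR at 22.4 and 24.4 FPKM and ALCAM at 14.4 and 15.01 FPKM.

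Receptor tyrosine kinases were expressed at 30 of 55, with a median of 2.54 FPKM. The ephrin receptor EPHA2 was the highest at 199.7 and 193 FPKM, followed by AXL, a receptor for the bridging ligand GAS6, at 124 and 124 FPKM. PTK7 was at 84.8 and 90.1 FPKM, the collagen receptor DDR1 at 79.8 and 77.5 FPKM, EGFR at 57.2 and 58.96 FPKM and EPHB4 at 52.9 and 52.4 FPKM. EPHA2 was 3.49 and 3.28 times EGFR. The other members of the EGFR family were lower, with ERBB2 at 21.5 and 21.02 FPKM and ERBB3 at 6.34 and 5.82 FPKM, and ERBB4 was listed at 0. MET and MST1R, receptors for the related ligands HGF and MSP, were level at 19.9 and 19.9 FPKM and 19.5 and 19.9 FPKM. IGF1R, at 11.5 and 12.2 FPKM, was 14.5 and 14.7 times the insulin receptor INSR at 0.79 and 0.83 FPKM. Some receptors of stroma and blood were below the limit, with PDGFRB at 0.12 and 0.04 FPKM, CSF1R at 0.03 and 0.03 FPKM and KIT at 0.20 and 0.27 FPKM.

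**Figure D4:**
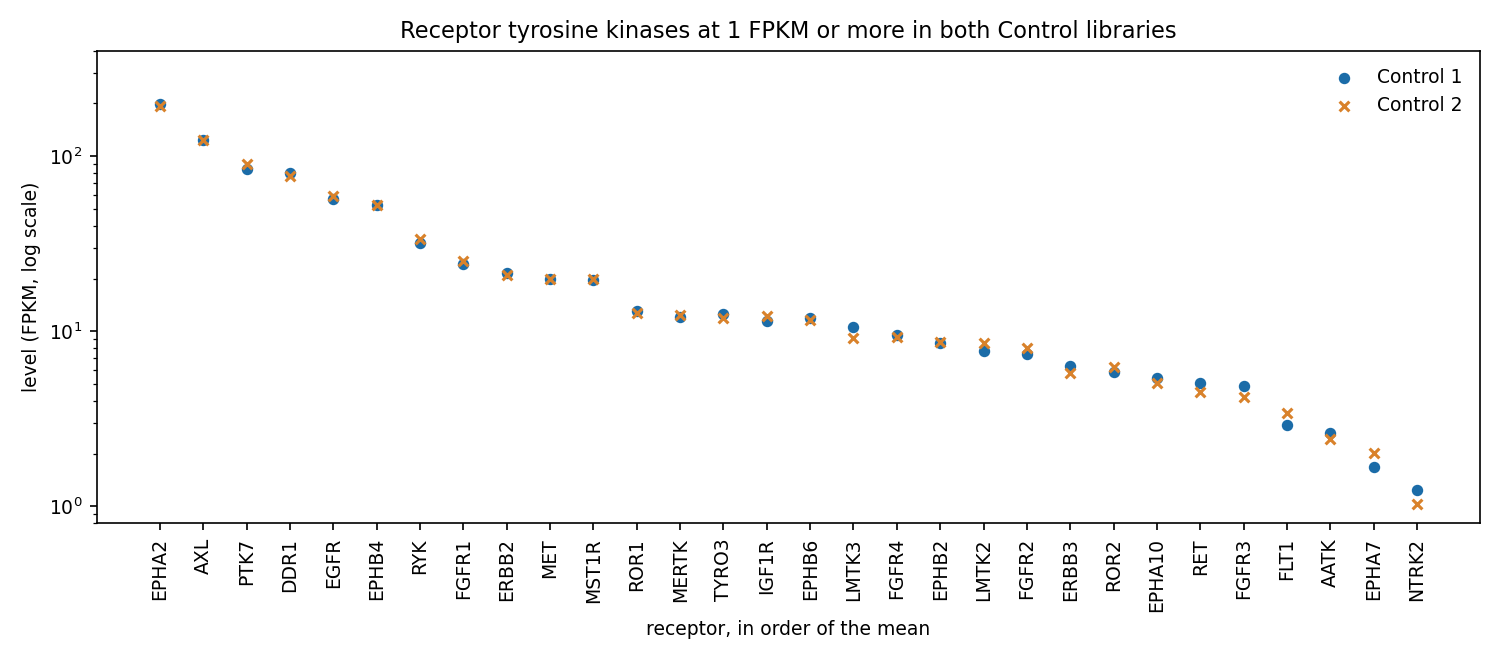
The 30 receptor tyrosine kinases expressed in both Control libraries are shown in order of their mean, as FPKM on a log scale with a point for each library. EPHA2 and AXL stand above 100 FPKM, and the pairs of points nearly coincide except at the lowest levels.

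TGF-beta superfamily receptors were expressed at 9 of 14. The coreceptor ENG, at 31.2 and 30.4 FPKM, and the type II receptor TGFBR2, at 30.3 and 30.1 FPKM, led the group with close but separate values, and the type I receptor TGFBR1 was at 6.48 and 6.11 FPKM. The BMP receptors BMPR2 and BMPR1A were at 13.5 and 14.7 FPKM and 11.9 and 11.9 FPKM. Of the Wnt, Notch and Hedgehog receptors 15 of 21 were expressed. LRP5, a Wnt coreceptor, was at 142 and 137 FPKM, the R-spondin receptor LGR4 at 40.5 and 41.5 FPKM, NOTCH2 at 30.7 and 32.1 FPKM and FZD2 at 23.4 and 24.9 FPKM. SMO, the Hedgehog signal transducer, was at 0.16 and 0.06 FPKM and LGR5 was listed at 0. The Hedgehog receptor PTCH1 was at 1.68 and 1.80 FPKM.

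Cytokine, interferon and death receptors were expressed at 31 of 42. TNFRSF12A, the TWEAK receptor, was at 145 and 139 FPKM, the TNF receptor TNFRSF1A at 129 and 125 FPKM and IL13RA1 at 113 and 115 FPKM. The 4 type I and type II interferon receptor subunits of the list were expressed, from IFNGR2 at 57.8 and 55.9 FPKM to IFNGR1 at 9.27 and 9.83 FPKM. Of the death receptors TNFRSF10B was at 34.4 and 34.2 FPKM and TNFRSF10A at 8.49 and 7.54 FPKM, while FAS was at 0.45 and 0.45 FPKM. The Toll-like receptor TLR6 was at 2.38 and 2.86 FPKM, TLR4 at 0.12 and 0.08 FPKM and TLR3 was listed at 0.

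G protein-coupled receptors were expressed at 34 of 61. GPRC5A led, followed by the protease-activated receptor F2RL1 at 101 and 106 FPKM and the adhesion receptor ADGRE5 at 97.9 and 103 FPKM. F2RL1 was the higher of these within each library, although their ranges overlapped. The neurotensin receptor NTSR1 was at 78.2 and 77.3 FPKM, the adenosine receptor ADORA2B at 62.95 and 62.9 FPKM and the thrombin receptor F2R at 47.9 and 51.01 FPKM. Receptors of gut hormones were mixed, with SSTR5 at 7.0 and 7.37 FPKM, GIPR at 6.43 and 7.80 FPKM, the cholecystokinin receptor CCKAR at 0.07 and 0.14 FPKM and GLP1R at 0.02 and 0.02 FPKM. The secretin receptor SCTR, a duct gene, was listed at 0, and the chemokine receptor CXCR4 was at 0 and 0.07 FPKM.

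Nuclear receptors were expressed at 23 of 47. The orphan receptor NR2F6 stood apart at 148 and 146 FPKM, and the next, the retinoic acid receptor RARG and the oxysterol receptor NR1H2, were at 30.6 and 32.98 FPKM and 30.2 and 30.9 FPKM. PPARG, the fat cell regulator, was at 25.6 and 23.5 FPKM, NR2F2 at 24.8 and 23.5 FPKM and the glucocorticoid receptor NR3C1 at 9.18 and 9.77 FPKM. The vitamin D receptor VDR was at 0.97 and 0.84 FPKM. ESR1, PGR, HNF4A and NR1I2 were listed at 0, and the second estrogen receptor gene ESR2 was at 0.60 and 0.57 FPKM.

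Glycolysis and lactate genes were expressed at 27 of 31, with a median of 19.2 FPKM, and together they held 1.84% and 1.81% of the summed FPKM. After GAPDH and ENO1 came ALDOA at 931 and 894 FPKM, PKM at 732 and 719 FPKM, LDHA at 424 and 415 FPKM and the lactate exporter SLC16A3 at 383 and 363 FPKM. Isozymes were unequal. LDHA was 2.41 and 2.35 times LDHB, SLC16A3 was 18.7 and 17.2 times SLC16A1, PFKP was 5.28 and 4.70 times PFKL, and HK1, at 42.8 and 41.4 FPKM, was 7.90 and 7.53 times HK2, at 5.42 and 5.50 FPKM. The liver form PKLR was at 0.31 and 0.61 FPKM.

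Glucose transporters were expressed at 10 of 14, led by the lysosomal transporter SLC2A6 at 35.1 and 33.2 FPKM, with SLC2A1 below it. SLC2A3 was at 0.63 and 0.55 FPKM and the liver and islet transporter SLC2A2 was listed at 0. Of the gluconeogenesis and glycogen genes 10 of 16 were expressed. Brain-type glycogen phosphorylase PYGB was at 277 and 271 FPKM and mitochondrial PCK2 at 46.4 and 46.9 FPKM, whereas cytosolic PCK1 was at 0 and 0.21 FPKM and FBP1 at 0.08 and 0 FPKM. Pentose phosphate and NADPH genes were expressed at 17 of 20, with the transketolase TKT at 165 and 159 FPKM and the mitochondrial folate enzyme MTHFD2 at 119 and 122 FPKM. TALDO1, which acts beside TKT in the non-oxidative branch, was at 116 and 113 FPKM, and PGD of the oxidative branch at 74.5 and 74.3 FPKM.

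All 29 genes of pyruvate entry and the citric acid cycle were expressed, with a median of 29.1 FPKM and no gene at 100 FPKM. Malate dehydrogenases MDH2 and MDH1 were at 87.1 and 83.01 FPKM and 78.8 and 77.2 FPKM, succinate dehydrogenase subunit SDHB at 74.3 and 74.2 FPKM and citrate synthase CS at 59.04 and 64.1 FPKM. Pyruvate dehydrogenase kinases, which shut the entry step, were lower, with PDK2 at 20.6 and 19.9 FPKM and PDK1 at 3.32 and 3.64 FPKM. The glutamine and aspartate list had 19 of 23 expressed. Its highest genes were transporters, SLC7A5 at 331 and 334 FPKM, its partner SLC3A2 at 215 and 201 FPKM and SLC1A5 at 193 and 182 FPKM. Asparagine synthetase ASNS was at 88.5 and 87.03 FPKM, while glutamine synthetase GLUL was at 1.31 and 1.16 FPKM.

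Serine, glycine, arginine and proline genes were expressed at 21 of 24. PYCR1, which completes proline synthesis, was at 120.5 and 117 FPKM, and the serine pathway enzyme PHGDH was at 109 and 106 FPKM, PSAT1 at 85.96 and 84.6 FPKM and PSPH at 30.2 and 32.3 FPKM. Argininosuccinate synthase ASS1 was at 17.9 and 18.3 FPKM. Nucleotide and gemcitabine handling genes were expressed at 29 of 32, and gemcitabine is a nucleoside drug used in pancreatic cancer. The nucleoside transporter SLC29A1 was at 372 and 367 FPKM and 9.50 and 9.40 times SLC29A2. The activating kinase DCK was at 4.63 and 3.82 FPKM, the inactivating deaminase CDA at 5.75 and 5.32 FPKM, and the ribonucleotide reductase subunits RRM1 and RRM2 at 28.7 and 30.4 FPKM and 35.6 and 37.9 FPKM. Concentrative transporters SLC28A1 and SLC28A3 were at 0.19 and 0.31 FPKM and listed at 0. SLC29A1 was thus the most abundant gene of this list, at 80.4 and 95.99 times DCK.

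Drug metabolism and efflux genes were expressed at 18 of 33. Glutathione transferase GSTP1 was at 254 and 253 FPKM, the exporter ABCC1 at 224 and 227 FPKM, CYP1B1 at 63.5 and 64.96 FPKM and the quinone reductase NQO1 at 52.6 and 50.4 FPKM. Alongside ALDH1A1, the exporter ABCB1 and the reductase AKR1C1 were listed at 0. GSTM1 was at 0.15 and 0.12 FPKM, and this gene and its relatives are similar enough to share fragments. Related genes of this list thus ranged from over 100 FPKM to 0.

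Of the pancreatic cancer driver genes 25 of 27 were expressed, with a median of 7.40 FPKM. GNAS was at 294 and 293 FPKM, ARID1A at 41.1 and 40.4 FPKM, MYC at 33.2 and 32.5 FPKM and SMAD4 at 2.52 and 3.21 FPKM. GATA6 and the ubiquitin ligase RNF43, at 0.65 and 0.48 FPKM, were the 2 below the limit. Genes along 9p21, a region often lost in pancreatic cancer, were expressed at 6 of 15, with FOCAD at 6.84 and 6.49 FPKM, KLHL9 at 5.59 and 5.82 FPKM and the methylthioadenosine enzyme MTAP at 2.53 and 3.08 FPKM. Copy number and mutations were not measured here.

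Mucins were expressed at 2 of 14, MUC1 and MUC3A at 1.75 and 2.21 FPKM, while MUC4 was at 0.09 and 0.03 FPKM, MUC5AC at 0.16 and 0.17 FPKM and MUC16 at 0.16 and 0.08 FPKM, mucins often made by pancreatic tumours. Keratins were expressed at 8 of 25, and after the simple epithelial forms KRT80 was at 56.2 and 57.1 FPKM and KRT7, a duct keratin, at 2.89 and 4.04 FPKM. The keratins together held 1.06% and 1.02% of the summed FPKM. Class I antigen presentation genes were expressed at 17 of 18, with CALR at 674 and 676 FPKM, B2M at 572 and 554 FPKM and HLA-B at 48.9 and 47.4 FPKM. HLA genes differ between individuals and from the reference, so their levels are uncertain. Class II genes were expressed at 1 of 8, HLA-DMA at 1.82 and 2.33 FPKM, with HLA-DRB1 listed at 0 and the class II activator CIITA at 0.49 and 0.81 FPKM. The count was 2 without Control replicate 1, with HLA-DMB at 0.42 and 1.0 FPKM, 0 at 2 FPKM and 5 at 1 TPM.

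Cancer-testis antigens, genes normally confined to the germ line, were expressed at 4 of 23. PRAME was at 57.97 and 59.99 FPKM, the helicase DDX43 at 11.2 and 11.4 FPKM, MAGEA10 at 1.88 and 1.28 FPKM and CTCFL at 1.0 and 1.49 FPKM, and 9 of the list were listed at 0 in both libraries. Oncofetal genes were expressed at 10 of 13. The chromatin protein HMGA1 was at 515 and 503 FPKM and its relative HMGA2 at 31.3 and 32.1 FPKM, the growth factor IGF2 at 34.5 and 33.9 FPKM, and the genes of proteins that bind its RNA at 9.83 and 10.1 FPKM for IGF2BP1, 32.9 and 33.1 FPKM for IGF2BP2 and 31.6 and 31.3 FPKM for IGF2BP3. DLK1 and GPC3 were near 0, at 0 and 0.03 FPKM and 0.05 and 0 FPKM.

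The highest run of neighbouring genes lay on chromosome 19, a region that was picked after its values were seen. Along 16513 genes placed by GENCODE on GRCh37, the median of log2(FPKM + 1) was taken in running windows of 15 neighbouring genes. The window median over the genome was 2.72 and the 99th percentile of windows was 5.22. The highest window, at 7.99, lay at chr19:39616410-39984425, from PAK4 to TIMM50, and the highest window of any other chromosome, around FLNA on X, reached 6.54. Windows above that percentile also lay on other chromosomes, among them chromosome 11 with 5.98 and chromosome 1 with 5.71. In the stretch from SPINT2 to AKT2, chr19:38734675-40791443, 29 of 64 genes reached a mean of 100 FPKM, 45.3%, against 3.74% of all placed genes, and the median was 54.2 FPKM.

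Neighbours outside the stretch were lower, but its ends, SPINT2 and AKT2, were set at genes of high level. Lower flanks follow in part from that choice, so they mark no boundary. Within 3000 kilobases of RPS16, none of the 28 genes on the lower-coordinate side of SPINT2 reached 100 FPKM, with a median of 3.33 FPKM. Most of these 28 were zinc finger genes, from ZNF566 to ZNF573. Beyond AKT2 3 of 56 reached it, with a median of 7.82 FPKM. The stretch held 5 of the 30 most abundant genes of these libraries, namely RPS16, FBL, ACTN4, PSMC4 and ECH1. AKT2, a kinase of the insulin pathway, was at 459 and 452 FPKM, the translation factor subunit EIF3K at 936 and 915 FPKM, the elongation factors PAF1 and SUPT5H at 516 and 489 FPKM and 546 and 535 FPKM, the kinase PAK4 at 176 and 166 FPKM and DYRK1B at 167 and 162 FPKM. RPS16, at chr19:39923777-39926589 on the minus strand with 5 exons, was 14.1 and 13.7 times the median ribosomal protein gene. SIRT2, a deacetylase of the sirtuin family, was at 65.02 and 62.2 FPKM.

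Some genes inside the same stretch were low, of which the following were chosen after their values were seen. LGALS16, LGALS14 and CLC, galectins of placenta and eosinophils, were listed at 0, and the interferon lambda genes were at 0.85 and 1.12 FPKM for IFNL1, 0.17 and 0.16 FPKM for IFNL2 and 0 and 0.19 FPKM for IFNL3. The Notch ligand DLL3, chosen in the same way, was not low, at 61.9 and 55.4 FPKM against the stretch's median of 54.2 FPKM. Others, chosen in the same way, were high, such as the phosphatase inhibitor PPP1R14A at 398 and 368 FPKM and the calpain CAPN12 at 129.7 and 140.4 FPKM. In all 51 of the 64 genes were expressed. This part of chromosome 19 is known to be amplified in PANC-1, which is background and not a result. Copy number was not measured here, and its part in these levels was not tested.

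**Figure D5:**
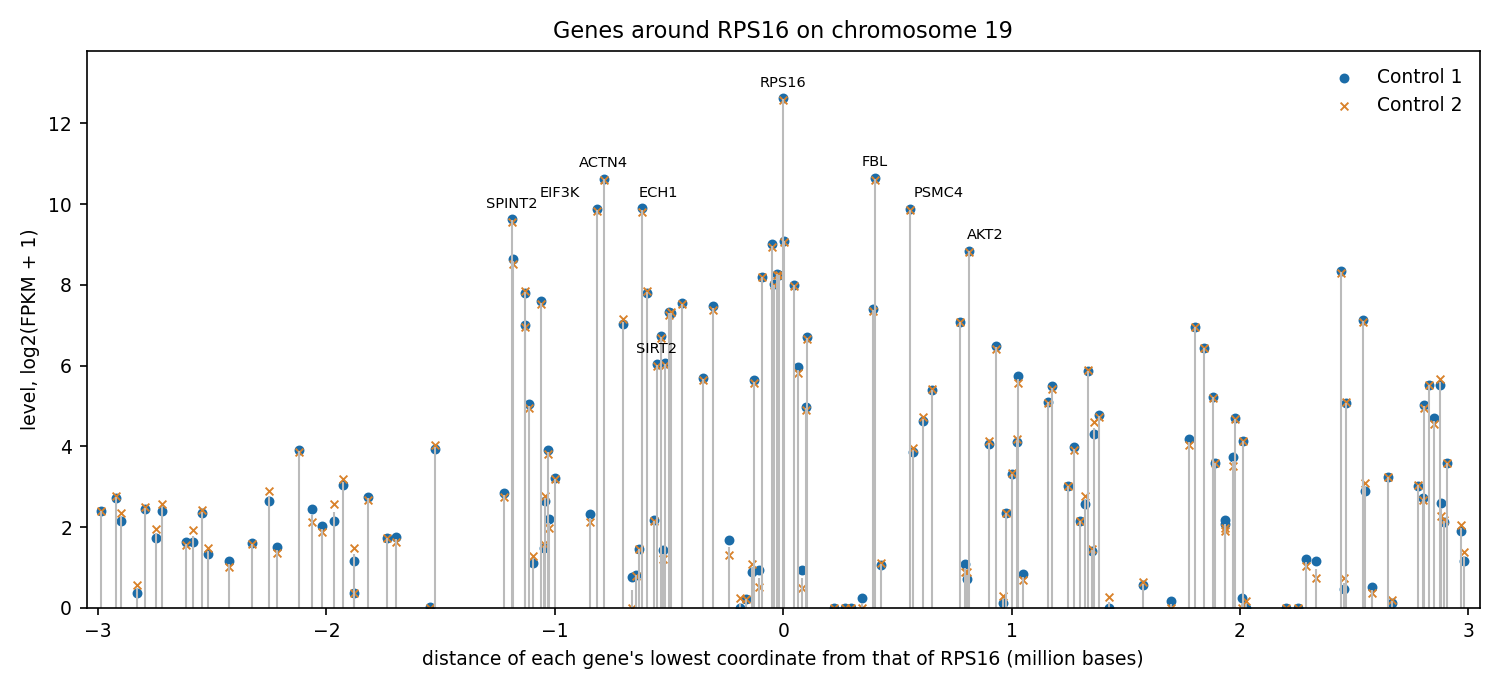
Levels of genes within 3000 kilobases of RPS16 are shown as log2(FPKM + 1) against the distance of each gene's lowest coordinate from that of RPS16, with a point for each Control library. Tall lines fill the stretch from SPINT2 to AKT2, where 29 of 64 genes reached a mean of 100 FPKM. Genes to its left, mostly zinc finger genes, stay below that level.

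The proteins that the study examined were also looked up, chosen for the study's subject after the levels were known. Sirtuins are NAD-dependent deacylases, and after SIRT2 the order was SIRT7 at 23.2 and 22.04 FPKM, SIRT3 at 22.7 and 20.6 FPKM, SIRT1 at 10.5 and 10.2 FPKM, SIRT6 at 9.01 and 7.56 FPKM, SIRT5 at 6.10 and 6.94 FPKM and SIRT4 at 0.59 and 0.59 FPKM. Ranges of SIRT7 and SIRT3 overlapped, although SIRT7 was higher within each library, and those of SIRT1 and SIRT6 did not. Of the CRL4B ubiquitin ligase, the scaffold CUL4B was at 26.9 and 28.9 FPKM, its relative CUL4A at 19.2 and 20.5 FPKM, the adaptor DDB1 at 73.7 and 73.2 FPKM and the ring protein RBX1 at 18.4 and 16.5 FPKM. The tumour-suppressive transcription factor FOXO3 was at 14.1 and 14.5 FPKM, below GRHL3. SIRT1 thus lay at rank 5961 of 16878 genes and was supported by about 370 fragments in Control 1.

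Of 4 further genes linked to stemness, NANOG was at 5.08 and 4.55 FPKM and POU5F1 at 9.64 and 11.4 FPKM, and both have pseudogenes that can take up or lend fragments. SOX2 was at 0.28 and 0.23 FPKM, and PROM1, which encodes the surface protein CD133, was at 0.03 and 0 FPKM. The proliferation gene MKI67 was at 37.4 and 38.9 FPKM.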

How the data were processed

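Gene levels in FPKM, rounded to 2 decimals, had been deposited by the authors for 16878 genes of each library, and were not scaled again. The submitters' processing notes name RSEM, HISAT and Bowtie2 with no version or order, and the RNA-seq genome build is not given in the sources used here. Entrez identifiers were matched to RefSeq symbols (16846 of 16878). Positions and transcript lengths came from GENCODE release 44 on GRCh37 and promoters from RefSeq on GRCh38.p14, without conversion. Depth was estimated by a search for steps of whole fragments, taking the lowest depth that scored near the best, since the best score alone was about 100% off in 2 of 36 simulated libraries. With that rule all 36 were recovered within 2.53%, but they scored at least 0.944 on a scale where 1 is whole fragments throughout and the real libraries 0.672 and 0.573, so the depth is approximate. The best score alone gave 9030000 and 9080000. FPKM carries no counts, so no counting intervals are given.

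A gene was expressed at 1 FPKM or more in both libraries. Named genes were the 30 most abundant, the highest and the described members of 48 lists, and the 10 largest differences above 10 FPKM. Other genes are marked as chosen after their values were seen. Members and lists were chosen with earlier results of these data known. With 1 group no test was made, and alternatives changed thresholds, the pseudocount of 1, scaling and the libraries used. Listed genes without a matched row were not analysed here, and some list members are counted but not reported here. Calculations used Python 3.11.15, pandas 2.3.3 and numpy 2.4.6. The siSIRT1 tables were not used.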

Additional observations from a re-analysis of the deposited data

How the results depend on the processing

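No paired analysis was possible because no result came from a test and the description covers 1 group. The count of expressed genes ranged from 10841 at 2 FPKM to 12998 at 1 TPM, and from 12123 to 12133 with a single library. The share of the 10 most abundant genes was 10.57% without ribosomal protein genes. The spread between libraries depended on weak genes. With a pseudocount of 0.1 its SD rose to 0.243 and the number of genes past 1.5-fold from 76 to 216. That number was 128 with no filter and 3 with a filter at 10 FPKM, since weak genes were then added or removed, and 77 to 78 under median-of-ratios or quantile scaling. Expressed list genes ranged from 499 to 627. Of the 48 lists, at most 9 changed their count by over 1.5 times under any of these settings. Settings chosen after seeing the data were the window sizes, where 11 and 21 genes gave highest medians of 8.20 and 7.37, both on chromosome 19, and a promoter window of 100 bases, where genes at 10 to 100 FPKM held a median of 11 CG dinucleotides. Depth limits values below about 1 FPKM, and 2 libraries of 1 line give no estimate of variation between cultures.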

Other observations

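Some near-identical gene copies, picked after their values were seen, were listed at or near 0 beside an expressed copy. EIF3CL, a copy of the translation factor gene EIF3C (151 FPKM and 144 FPKM), was listed at 0 in Control 1 and at 4.57 FPKM in Control 2. SERF1A was at 0.01 FPKM and 0 FPKM while its copy SERF1B was at 27.3 FPKM and 24.5 FPKM. Of the 4078 genes above 3 and up to 10 FPKM, 2 were listed at 0 in 1 library, and of the 1945 genes above 1 and up to 3 FPKM, 6 were. How fragments shared by copies had been divided is not given in the sources used here.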
